A study of Mus musculus with 8 samples.

Results

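Genes of mitosis and cytokinesis were examined in RNA from heart ventricles of mouse embryos at embryonic day 15.5. The 44 genes, out of 53465 in the deposited table, were taken by symbol from a list of G2/M, spindle, condensin and cytokinesis genes, and each matched 1 Ensembl identifier. The study compared 4 wild-type (WT) libraries with 4 libraries of the genotype Nrg-1flox;Cdh5-CreERT2, whose titles carry the word Flox. In that line a Cre recombinase that tamoxifen activates is driven by the endothelial Cdh5 promoter, so that the floxed Nrg1 (neuregulin-1) gene is the target in endothelial cells, while the RNA came from the whole ventricle with all its cell types. The design text gives 1 ventricle to each replicate, but transcripts of both sexes in most libraries, given below, do not go with 1 embryo per library. The tamoxifen dose and time, and whether the WT embryos carried Cre or received tamoxifen, are not given in the sources used here.

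At entry into mitosis, CDK1 bound to cyclin A or cyclin B phosphorylates the proteins that condense chromosomes and build the spindle. A checkpoint on unattached kinetochores then holds back the anaphase-promoting complex (APC/C), a ubiquitin ligase that, once active, marks securin and cyclin B for destruction and so starts anaphase. The central spindle and a contractile ring afterwards divide the cell. In the fetal heart, cardiomyocytes still divide while they beat, as do endothelial, epicardium-derived and blood cells, and neuregulin from endocardial cells is known as a growth signal to the myocardium. A transcript level in whole ventricle therefore adds up all dividing cell types, and fewer dividing cells cannot be told apart from less RNA in each.

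Many mitotic genes are known to share promoter elements, the cell cycle genes homology region (CHR), which binds the DREAM and MuvB complexes, and the CCAAT box, which binds NF-Y. RefSeq promoter windows (GRCm38.p6, 250 bases before to 50 bases after the start) were found for 36 of the 44 genes. They were searched on both strands for CHR letters (TTTGAA or TTCGAA) and for CCAAT. CHR letters were present in 28 of the 36 genes (77.8%), against 16.1% of the other tested genes with a window and 21.7% of all 27025 genes with one. Within 50 bases on either side of the start, a span chosen after the positions were seen, the shares were 69.4% of the mitotic genes and 4.16% of the other tested genes. CCAAT was present in 28 of the 36 (77.8%, against 42.5% of the other tested genes and 41.1% of all genes), at 2 or more places in 18 of the 36 (against 16.1% of the other tested genes). CHR letters and CCAAT stood in the same window in 25 of the 36 (69.4%, against 6.61% of the other tested genes and 8.61% of all). A match is a description of the letters and not a shown binding site. No match was found for CHR letters in Ccnb1, Nek2, Mad2l1, Pttg1, Cenpe, Birc5, Nusap1 and Ncaph, which says only that the letters were not in that window.

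The stretches from 150 bases before to 30 bases after the start are shown for the 3 genes with the largest differences between the groups (Cdc20, Ube2c and Cenpa), and for Ccnb2 and Cdk1, core mitotic genes with small differences. They are written 5′ to 3′ on the gene's strand, at chr4:118437314-118437493, minus strand (Cdc20), chr2:164769779-164769958, plus strand (Ube2c), chr5:30666736-30666915, plus strand (Cenpa), chr9:70421525-70421704, minus strand (Ccnb2) and chr10:69352883-69353062, minus strand (Cdk1). Capitals mark CHR letters and CCAAT on either strand, where TTCAAA and ATTGG are the reversed forms.
Cdc20: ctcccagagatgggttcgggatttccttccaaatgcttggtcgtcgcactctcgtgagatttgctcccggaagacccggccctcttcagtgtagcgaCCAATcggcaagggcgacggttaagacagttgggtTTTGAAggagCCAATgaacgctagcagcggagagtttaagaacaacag
Ube2c: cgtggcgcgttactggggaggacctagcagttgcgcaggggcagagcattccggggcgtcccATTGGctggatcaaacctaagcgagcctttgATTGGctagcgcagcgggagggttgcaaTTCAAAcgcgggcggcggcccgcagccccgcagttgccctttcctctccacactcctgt
Cenpa: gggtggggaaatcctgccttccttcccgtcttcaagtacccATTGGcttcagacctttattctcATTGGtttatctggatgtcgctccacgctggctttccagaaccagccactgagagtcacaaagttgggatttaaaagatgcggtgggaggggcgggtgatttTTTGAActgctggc
Ccnb2: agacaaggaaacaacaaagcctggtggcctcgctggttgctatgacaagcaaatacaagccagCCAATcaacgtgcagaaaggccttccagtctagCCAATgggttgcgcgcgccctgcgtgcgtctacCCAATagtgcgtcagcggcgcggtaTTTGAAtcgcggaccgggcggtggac
Cdk1: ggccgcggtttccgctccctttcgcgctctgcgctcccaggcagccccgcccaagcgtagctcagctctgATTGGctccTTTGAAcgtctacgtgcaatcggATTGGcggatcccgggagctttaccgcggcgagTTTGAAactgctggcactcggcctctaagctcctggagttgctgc
Each of the 5 stretches held CHR letters and at least 2 CCAAT boxes. The CHR letters began 18 bases before the start in Cdc20, 29 before it in Ube2c and 15 before it in Cdk1, and at bases 17 and 5 of the transcript in Cenpa and Ccnb2. Cdk1 had further CHR letters 71 bases before the start. In the longer Ube2c window, 1 of the CCAAT matches on the gene's strand overlapped 1 on the other strand.

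The libraries held 16761763 to 24144272 expected counts, and TMM factors lay between 0.988 and 1.01. Nrg1 (ENSMUSG00000062991, GRCm38 chromosome 8, 31814551 to 32884029) was at 5.46, 4.64, 4.08 and 5.31 CPM (counts relative to the TMM-scaled total of the library, a unit that allows for depth but not for gene length) in WT libraries 1 to 4. It was at 6.82, 6.33, 6.16 and 5.36 CPM in the libraries labelled Flox. The target was thus not lower under the label of its deletion (log2 fold change 0.34, SE 0.12, edgeR's adjusted p = 0.311), so the libraries are called labelled-Flox throughout, and each direction is that of the label. The counts are summed over all annotated exons and all cell types, and which exons are floxed is not given in the sources used here. In 7 of the 8 libraries Xist (103 to 327 CPM) and Y-linked transcripts were both present, and WT library 4 had nearly no Xist (0.18 CPM). Xist is made by female cells and the Y-linked genes by male cells, so these 7 libraries go against the stated 1 ventricle, and the number of embryos behind each is not known here. The summed level of 4 Y-linked genes was 69.3 to 171 CPM across WT and 42.9 to 120 CPM across labelled-Flox samples. The 12 cardiomyocyte markers were all tested, with a summed level of 50174 to 55227 CPM (WT) and 49063 to 55795 CPM (labelled-Flox), and the lowest of all markers listed was the erythroid factor Klf1 (at most 0.41 CPM).

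Did the mitotic transcripts differ between the groups? All 44 genes passed the filter on low counts, with 218 to 9505 expected counts per library. None passed a false discovery rate (FDR) of 0.05 in edgeR's quasi-likelihood test, where 81 of 15388 tested genes did (0.526%, made up of 0.312% higher and 0.214% lower). At an unadjusted p below 0.05 there were 5 of the 44, all higher in labelled-Flox libraries: Cdc20, Ube2c, Cenpa, Espl1 and Prc1. That rule was met by 10.5% of all tested genes, and by 5.13% in the higher direction. With DESeq2 3 of the 44 passed an FDR of 0.05 (Cdc20, Ube2c and Cenpa), and 192 of 15387 tested genes did (1.25%). Without a filter on low counts the quasi-likelihood test passed these 3 as well, and 338 of 29350 tested genes (1.15%), so both settings called more genes in general. With the replicate number as a block, 1 of the 44 passed (Cdc20, edgeR's adjusted p = 0.0346), and 93 of all tested genes did.

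The differences were small. The fitted log2 fold change lay between -0.014 (Ttk) and 0.21 (Cdc20), with a median of 0.042, beside a median of -0.0012 over all tested genes. It was above 0 in 40 of the 44 genes, where 49.4% of all tested genes were above 0, and its size was under 0.1, a 1.07-fold change, in 40 of the 44. The 4 genes below 0 were Ttk (-0.014), Kif20b (-0.0084), Birc5 (-0.0039) and Kif4. The 95% confidence interval lay within 0.2 on either side of 0, a change of 1.15-fold, in 38 of the 44. The exceptions were Cdc20, Ube2c, Espl1, Pttg1, Cenpa and Cenpf. Over the 44, the lowest bound was a fold of 0.895 (Pttg1) and the highest a fold of 1.26 (Cenpa). The spread between libraries was narrow for these genes, with a median biological coefficient of variation of 4.24%, against 5.49% over all tested genes.

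**Figure D1:**
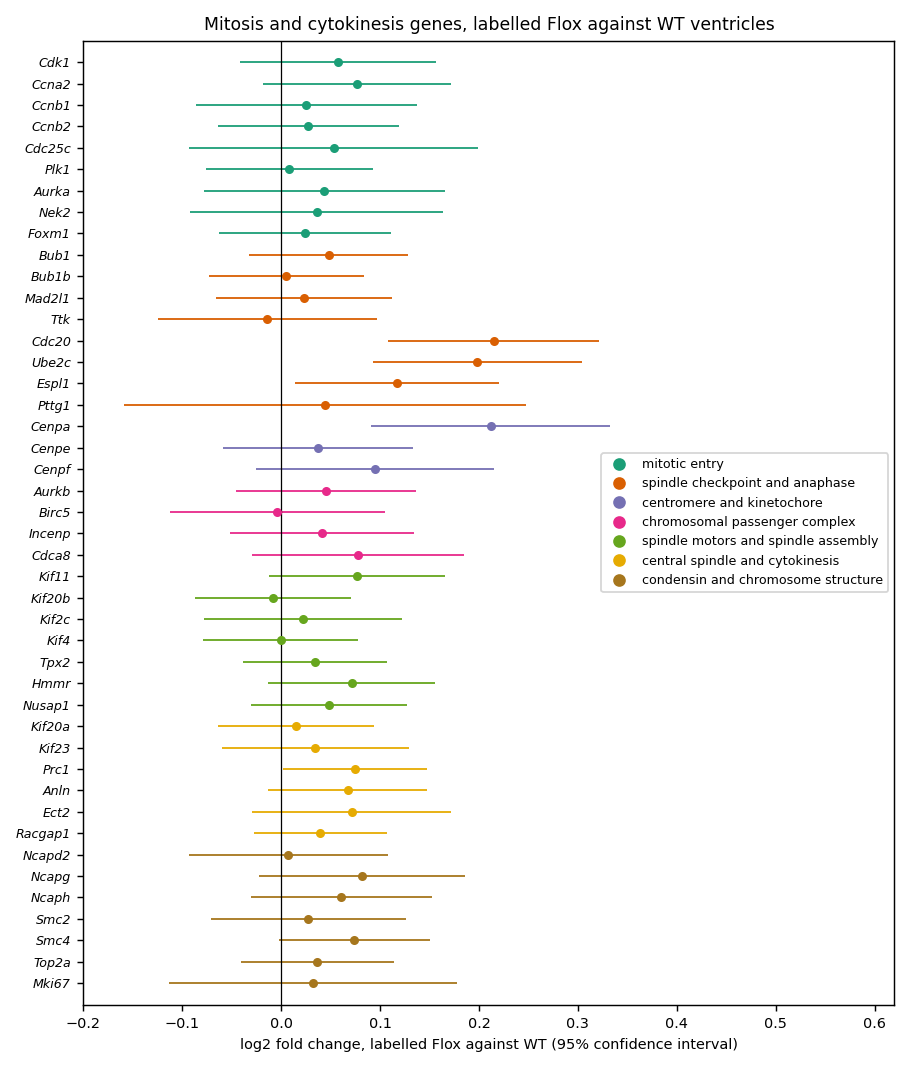
Log2 fold change of each of the 44 genes (points) with its 95% confidence interval (lines), labelled-Flox against WT, 4 libraries in each group, coloured by role group. Most points lie between 0 and 0.1, and Cdc20, Ube2c and Cenpa stand near 0.2 with intervals above 0.

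The levels of these genes varied together from library to library, and 1 library stood highest. Labelled-Flox library 3 had the highest level of all 8 libraries in 34 of the 44 genes, and WT library 4 the lowest in 27. Their summed level was 4733, 4715, 4639 and 4455 CPM in WT libraries 1 to 4 and 4808, 4608, 5105 and 4744 CPM in labelled-Flox libraries 1 to 4. The groups overlapped, since labelled-Flox library 2 was below WT libraries 1 to 3. Taken as the median log2 ratio to the WT mean over the 44 genes, labelled-Flox library 3 stood at 0.12 and WT library 4 at -0.053, with the other 6 libraries from 0.0024 to 0.046. Over all tested genes, such a median, with a small constant added before the log, was between -0.00053 and 0.0027 in each library. TMM scaling itself holds that median near 0. Without labelled-Flox library 3, 28 of the 44 genes were above 0 and the median log2 fold change was 0.026. Without WT library 4, the number was 36 and the median 0.025. With a covariate for the Y-linked sum they were 33 and 0.020. No marker sum had the same order as the mitotic sum, but the endothelial and atrial sums were opposite to it at both ends. The erythroid sum (10 of 12 markers tested) was 4295 to 9398 CPM across WT and 5878 to 10013 CPM across labelled-Flox samples, and was 6897 CPM in labelled-Flox library 3 and 8239 CPM in WT library 4. The endothelial sum (12 of 12 tested) was 1585 to 1645 CPM (WT) and 1479 to 1608 CPM (labelled-Flox), with its lowest value in labelled-Flox library 3 and its highest in WT library 4. The atrial sum (6 of 6 tested) was likewise lowest in labelled-Flox library 3 (3092 CPM) and highest in WT library 4 (4074 CPM). The part of cell composition in the mitotic levels was not tested.

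**Figure D2:**
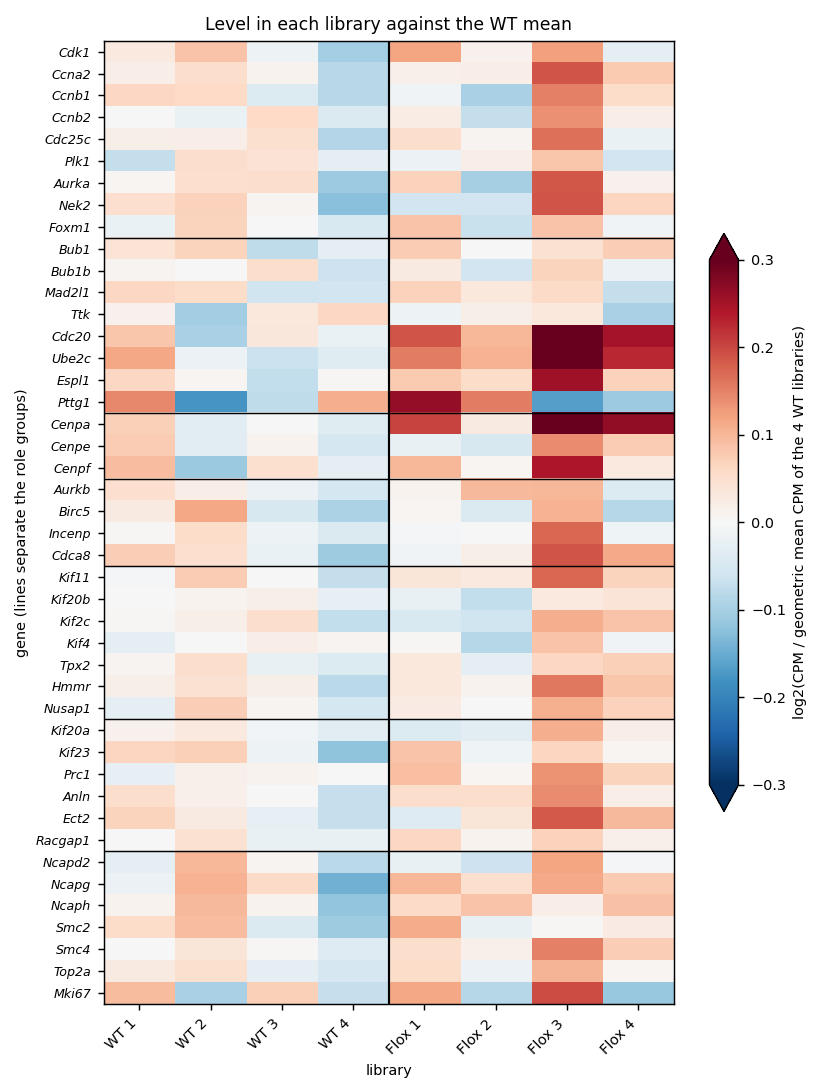
Level of each of the 44 genes (rows, in role groups) in each of the 8 libraries (columns), as log2 of the ratio of its CPM to the geometric mean of the 4 WT libraries, with colours clipped at 0.3 on either side. The column of labelled-Flox library 3 is the reddest and that of WT library 4 the bluest, and Pttg1 runs against its neighbours in labelled-Flox library 3.

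The genes that bring cells into mitosis had small differences. In this group are Cdk1, the mitotic cyclins Ccna2, Ccnb1 and Ccnb2, the CDK1-activating phosphatase Cdc25c, the kinases Plk1, Aurka and Nek2, and Foxm1, a transcription factor of G2/M genes. All 9 were above 0, from 0.0080 (Plk1) to 0.076 (Ccna2), with a median of 0.036, and none had an unadjusted p below 0.05. Ccna2 had the smallest p of the group and the highest level per kilobase of exon of the 44 genes, at 54.9 CPM per kilobase. It was at 221, 226, 219 and 206 CPM (WT 1 to 4) and 220, 221, 248 and 230 CPM (labelled-Flox 1 to 4). The groups overlapped, and apart from labelled-Flox library 3 all values lay between 206 and 230 CPM. The log2 fold change was 0.076 (SE 0.0438, edgeR's adjusted p = 0.592). Cyclin B, which with CDK1 forms the mitotic kinase, was alike: Ccnb1 averaged 133 ± 6.66 CPM across WT and 135 ± 9.80 CPM across labelled-Flox samples (SD, n = 4), with an interval of the log2 fold change from -0.09 to 0.14. Ccna2 shares 510 exonic bases with Exosc9 on the opposite strand, and its expected counts were not whole in any of the 8 libraries.

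Of the 4 genes with a log2 fold change over 0.1, 3 were in the group of the spindle checkpoint and anaphase: Cdc20, Ube2c and Espl1, which act in anaphase. Cdc20 encodes the activator of the APC/C that the checkpoint inhibits. It was at 82.2, 72.5, 79.4 and 76.6 CPM in the 4 WT samples, against 88.4, 83.1, 97.0 and 92.2 CPM under the Flox label. Cdc20 was the only 1 of the 44 genes whose groups did not overlap (2.27%, where 6.05% of all tested genes did not overlap and 3.07% in the higher direction). Its log2 fold change was 0.21 (SE 0.0492, 95% interval 0.11 to 0.32, edgeR's adjusted p = 0.0813), and it was above 0 in each of 18 alternative settings (0.18 to 0.27), with an adjusted p of 0.0020 to 0.255. These settings refit the same libraries, and with separate groups leaving out 1 library could not turn the sign. Cdc20 (chromosome 4, 118432901 to 118437352, minus strand) shares 53 exonic bases with Elovl1, and its expected counts were whole numbers in all libraries.

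Ube2c, the E2 enzyme that passes ubiquitin to APC/C substrates, was at 121, 111, 107 and 109 CPM in WT libraries. In labelled-Flox libraries it was at 125, 120, 138 and 131 CPM. Only WT library 1 reached into the range of the other group. The log2 fold change was 0.20 (SE 0.0489, 95% interval 0.09 to 0.30, edgeR's adjusted p = 0.108), with 0.16 to 0.24 over the alternative settings and an adjusted p of 0.0049 to 0.305. Ube2c shares 592 exonic bases with Tnnc2 on the opposite strand, and its expected counts were not whole in any library.

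The substrates and partners of that step had smaller fold changes. Espl1, the protease separase that cuts cohesin, was at 53.7, 51.7, 48.9 and 51.6 CPM (WT 1 to 4) and 54.3, 53.4, 61.4 and 54.0 CPM (labelled-Flox 1 to 4), a log2 fold change of 0.12 (edgeR's adjusted p = 0.404), named because of its unadjusted p. Its values stood close together apart from labelled-Flox library 3. Pttg1 encodes securin, the inhibitor of separase and an APC/C substrate. It was at 37.7, 30.2, 32.4 and 36.8 CPM in the 4 WT samples, against 40.9, 38.0, 30.4 and 31.6 CPM under the Flox label. It had the largest coefficient of variation of the 44 genes within groups, and was nearly lowest in labelled-Flox library 3, where most of the others were highest. The checkpoint kinases and adaptors that hold anaphase back were near 0, with Bub1 at 0.05, Mad2l1 at 0.02, Bub1b at 0.01 and Ttk at -0.014 on the log2 scale. The intervals of these 4 lay between -0.12 and 0.13.

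**Figure D3:**
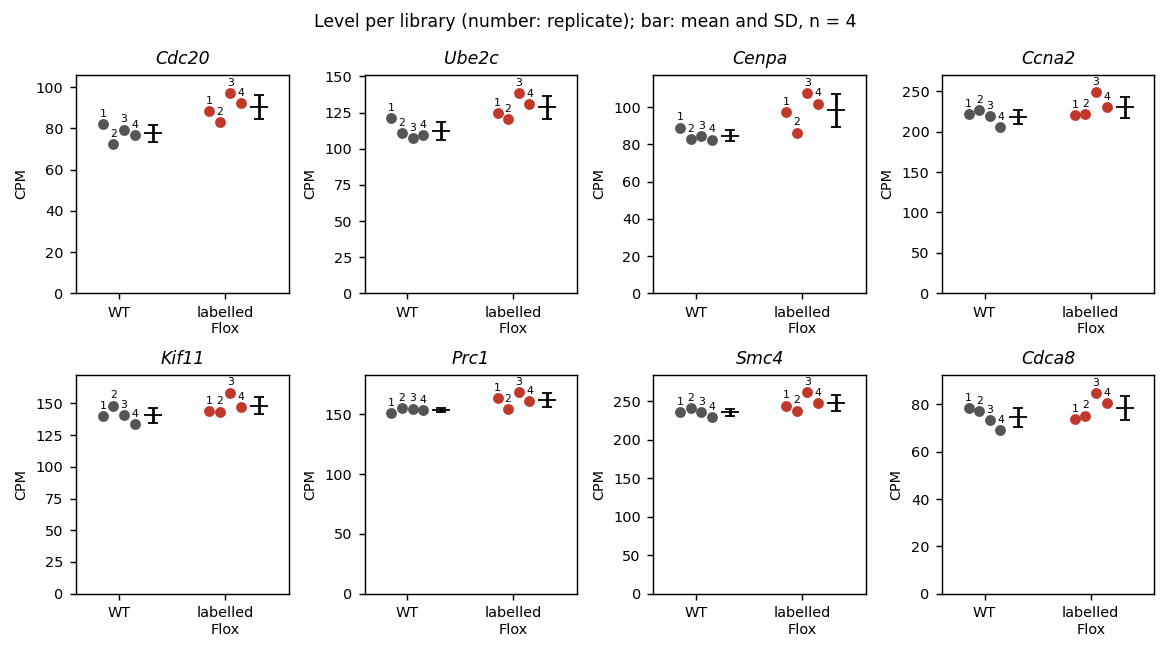
CPM of 8 genes in each library (points, numbered by replicate) with the mean and SD of the 4 libraries in each group. The groups do not overlap for Cdc20 and overlap for the other 7, and labelled-Flox library 3 is the highest point in every panel.

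At the centromere, Cenpa had the largest log2 fold change of 3 genes. Cenpa encodes the histone H3 variant that marks centromeric chromatin. It was at 89.0, 82.9, 84.7 and 82.7 CPM (WT 1 to 4) and 97.5, 86.3, 108 and 102 CPM (labelled-Flox 1 to 4). Labelled-Flox library 2 lay within the WT range and the other 3 above it. The log2 fold change was 0.21 (SE 0.0558, 95% interval 0.09 to 0.33, edgeR's adjusted p = 0.135). It was above 0 in each of the 18 alternative settings (0.16 to 0.27, adjusted p of 0.0043 to 0.358) and passed without labelled-Flox library 2 (0.27, adjusted p = 0.0372, in a fit where 0.219% of all tested genes passed). Without labelled-Flox library 3 it was 0.16 (edgeR's adjusted p = 0.358). In that fit Cdc20 was at 0.18 and Ube2c at 0.16 (edgeR's adjusted p = 0.255 and 0.305). For all 3 genes these were the lowest fold change and the highest adjusted p of the alternative settings. The expected counts of Cenpa were not whole in any library. The large kinetochore proteins Cenpe, a motor, and Cenpf had log2 fold changes of 0.04 and 0.10, with adjusted p of 0.847 and 0.598 in edgeR's test.

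The chromosomal passenger complex, in which the kinase AURKB is held by Incenp, Birc5 (survivin) and Cdca8 (borealin) to correct attachments and later to drive cytokinesis, was above 0 in 3 of 4 genes (median 0.043). Cdca8 had the smallest p of the 4, at 78.4, 77.1, 73.4 and 69.1 CPM in the 4 WT samples, against 73.9, 75.3, 84.9 and 80.6 CPM under the Flox label (log2 fold change 0.08, SE 0.0496, edgeR's adjusted p = 0.634). Birc5 had the highest level per kilobase of the complex (20.6 CPM per kilobase), at 71.4, 75.9, 67.7 and 65.6 CPM (WT 1 to 4) and 70.3, 68.0, 75.3 and 66.0 CPM (labelled-Flox 1 to 4). Its group means, 70.1 ± 4.50 and 69.9 ± 4.03 CPM (SD, n = 4), were much closer than libraries within a group were to each other. Aurkb and Incenp had log2 fold changes of 0.05 and 0.04.

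The spindle motors and assembly factors had a median of 0.034, with 5 of 7 above 0. Kif11, the kinesin that pushes spindle poles apart, was at 140, 148, 141 and 134 CPM in the 4 WT samples, against 144, 143, 158 and 147 CPM under the Flox label (log2 fold change 0.08, SE 0.0413, edgeR's adjusted p = 0.568). Tpx2, which activates Aurora A on the spindle, had the highest level per kilobase of the group (24.8 CPM per kilobase). It was at 115, 119, 113 and 111 CPM (WT 1 to 4) and 117, 112, 120 and 120 CPM (labelled-Flox 1 to 4), a log2 fold change of 0.03 (edgeR's adjusted p = 0.802). Both sets of values overlapped. The microtubule-binding Hmmr (0.07) and Nusap1 (0.05) and the depolymerising kinesin Kif2c (0.02) were above 0, and the chromokinesin Kif4 and Kif20b were at or just below it. Kif4 averaged 76.5 CPM in both groups.

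The genes of the central spindle and of cytokinesis were all above 0, with a median of 0.053. Prc1, which bundles the antiparallel microtubules of the central spindle, was at 151, 155, 155 and 153 CPM in the 4 WT samples, against 164, 154, 169 and 161 CPM under the Flox label. WT values were within a few CPM of each other, and labelled-Flox library 2 lay among them (log2 fold change 0.07, SE 0.0336, edgeR's adjusted p = 0.458). Kif20a, a kinesin of the central spindle, was at 112, 113, 110 and 108 CPM (WT 1 to 4) and 108, 108, 119 and 112 CPM (labelled-Flox 1 to 4), a log2 fold change of 0.01 (edgeR's adjusted p = 0.939). The scaffold of the contractile ring Anln (0.07), the RhoA exchange factor Ect2 (0.07) and the centralspindlin subunits Kif23 (0.03) and Racgap1 (0.04) lay between these. Prc1 and Kif20a share 911 and 1271 exonic bases with genes on the opposite strand (Rccd1 and Cdc23), and the counts of both were not whole in any library.

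Condensin and chromosome structure genes were above 0 in 7 of 7, with a median of 0.037. Smc4, an ATPase of condensin, was at 235, 241, 236 and 229 CPM in the 4 WT samples, against 244, 238, 261 and 247 CPM under the Flox label. The WT maximum exceeded only labelled-Flox library 2 (log2 fold change 0.07, SE 0.0353, edgeR's adjusted p = 0.494). Its partner Smc2 was at 0.03, and the regulatory subunits Ncapg, Ncaph and Ncapd2 were at 0.08, 0.06 and 0.0072 on the log2 scale. Top2a, the topoisomerase that untangles sister chromatids, averaged 404 ± 12.9 CPM (WT) and 414 ± 15.4 CPM (labelled-Flox, SD, n = 4). Mki67, the proliferation marker that coats mitotic chromosomes, averaged 318 ± 21.2 and 325 ± 34.2 CPM (SD, n = 4), and its interval was -0.11 to 0.18 on the log2 scale. In Mki67, WT libraries 1 and 3 (339 and 333 CPM) and labelled-Flox libraries 1 and 3 (344 and 363 CPM) stood above the other 4 (293 to 302 CPM).

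Per kilobase of exon, the mean level of the 44 genes ran from 2.70 (Cdc25c) to 54.9 CPM (Ccna2), with a median of 17.3. Ccna2 was followed by Ccnb2 (51.3), Smc4 (46.4), Ube2c (46.3), Top2a (45.4) and Cdc20 (44.9 CPM per kilobase), and the last 4 were not apart beyond the SD of their libraries. At the low end Cdc25c, Ttk (4.99) and Kif20b (6.11) preceded Espl1 (6.13 CPM per kilobase). Cdc20 and Ube2c were thus among the most abundant of these transcripts, and Cenpa (15.6 CPM per kilobase) lay in the middle of the order. The length is the union of annotated exons, so genes with long rarely used exons appear lower.

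**Figure D4:**
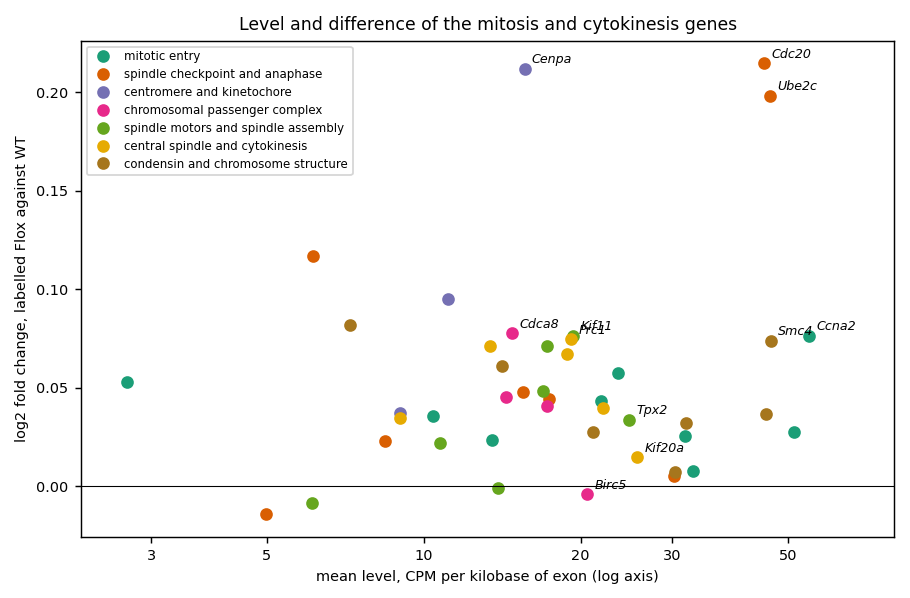
Log2 fold change (labelled-Flox against WT) of the 44 genes against their mean level in CPM per kilobase of exon on a log axis, coloured by role group, with the 11 genes described by the naming rule labelled. Genes with differences under 0.1 occur at every level, and Cdc20 and Ube2c lie at the abundant end.

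A further 144 genes of the mitotic apparatus, listed apart from the 44, were all tested. None passed an FDR of 0.05 in edgeR's test, where 0.526% of all tested genes did, and 11 (7.64%) had an unadjusted p below 0.05, beside 10.5% of all tested genes. Of these 11, 10 were higher (6.94% of the 144, beside 5.13% of all tested genes). Groups were fully separate in 10 of the 144, beside 6.05% of all tested genes. Of the 42 other kinetochore and centromere genes, 35 were above 0 with a median log2 fold change of 0.055. The smallest p was that of Kntc1, which helps to bring dynein to kinetochores. It averaged 51.0 ± 2.60 CPM across WT and 56.2 ± 1.46 CPM across labelled-Flox samples (SD, n = 4). Of the 41 other spindle and cytokinesis genes 30 were above 0 (median 0.031), with the smallest p in the spindle protein Fam83d at 46.0 ± 0.377 and 50.6 ± 2.68 CPM (SD, n = 4). Mitotic entry regulators and DREAM-MuvB genes were above 0 in 18 of 27 (median 0.028). In that list Wee1, the kinase that inhibits CDK1, had the smallest p and averaged 58.3 ± 0.799 and 64.1 ± 3.56 CPM (SD, n = 4). The log2 fold changes of Kntc1, Fam83d and Wee1 were 0.14, 0.14 and 0.13, with adjusted p of 0.180, 0.197 and 0.192 in edgeR's test. The groups did not overlap for any of these 3 genes, nor for Anapc5 and Cdca5, which had the smallest p in the lists given next.

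Subunits and regulators of the APC/C itself, the complex that Cdc20 and Ube2c serve, were above 0 in 15 of 19, with a median of 0.029 and 0 of 19 at an unadjusted p below 0.05. The smallest p there was that of the subunit Anapc5, at 330 ± 6.20 CPM in WT against 343 ± 3.23 CPM in labelled-Flox samples (SD, n = 4). Cohesin and other condensin genes were above 0 in 14 of 15 (median 0.030), with Cdca5 (sororin) at their head (log2 fold change 0.10, SE 0.0494, edgeR's adjusted p = 0.513). Beside them, DNA replication genes were above 0 in 30 of 44 (median 0.022), and G1 cyclins, CDKs and CDK inhibitors in 16 of the 20 tested of 21 (median 0.042), with 0 genes of either list past an FDR of 0.05 and with 1 and 2 at an unadjusted p below 0.05. The lists were not tested against one another, and all share the same 8 libraries.

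**Figure D5:**
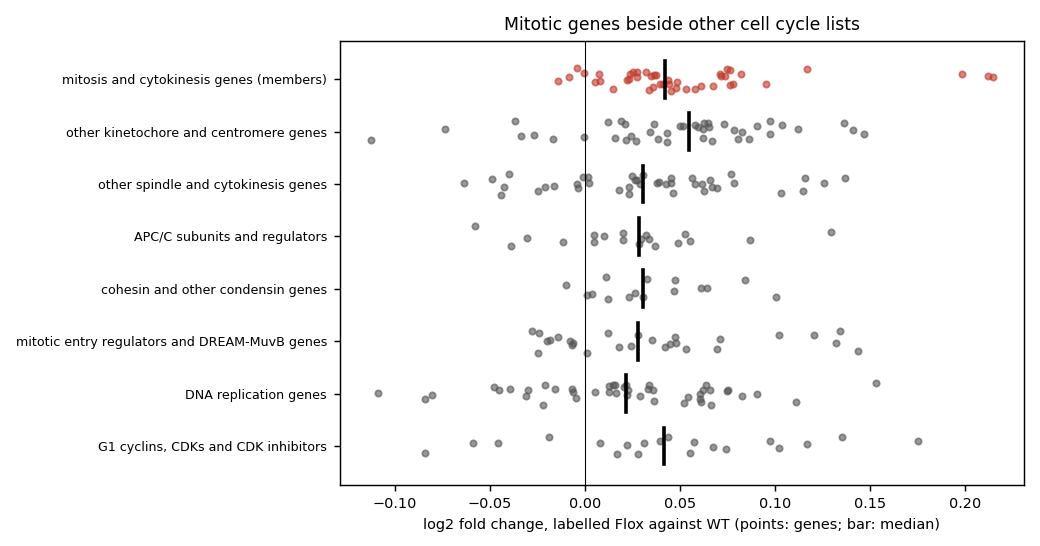
Log2 fold change (labelled-Flox against WT) of each tested gene (points, spread vertically for sight) in the 44 mitosis and cytokinesis genes and in 7 other cell cycle lists, with the median of each list as a bar. The medians lie between 0.022 and 0.055, and the 3 points near 0.2 are Cdc20, Ube2c and Cenpa.

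Markers of the cell types in the ventricle were read out in the same fit. Of the cardiomyocyte markers 7 of 12 were above 0 (median 0.026), and Nkx2-5, a core cardiac transcription factor, rose from 96.9 ± 3.66 to 112 ± 2.16 CPM (SD, n = 4, edgeR's adjusted p = 0.0194). Endothelial and endocardial markers were below 0 in 10 of 12 (median -0.073), fibroblast markers in 8 of 10 (-0.10) and smooth muscle and pericyte markers in 7 of 9 (-0.12), and no member of these lists passed an FDR of 0.05. At an unadjusted p below 0.05, 5 endothelial markers were lower and 1 higher, 3 fibroblast markers lower, and 4 smooth muscle markers lower and 1 higher. That rule was met by 10.5% of all tested genes. Groups did not overlap in 4 of the 12 endothelial markers, beside 6.05% of all tested genes. The lowest adjusted p among those 12 was 0.0584 in edgeR's test. Erythroid markers were above 0 in 9 of 10 tested (0.11), macrophage and leukocyte markers in 8 of 10 (0.073) and epicardial markers in 7 of 7 (0.12), also with no member past the threshold. Atrial markers were below 0 in 6 of 6 (-0.15), of which Kcnj3, a subunit of the atrial acetylcholine-gated potassium channel, fell from 17.9 ± 0.299 to 13.0 ± 1.45 CPM (SD, n = 4, edgeR's adjusted p = 0.0261). The summed epicardial level was 162 to 173 CPM across WT and 171 to 193 CPM across labelled-Flox samples, and the macrophage sum 119 to 167 and 129 to 191 CPM. Fibroblast sums were 5686 to 6699 and 5463 to 6612 CPM, smooth muscle sums 2062 to 2171 and 2115 to 2235 CPM, and atrial sums 3150 to 4074 and 3092 to 3767 CPM. Their part in the mitotic levels was not tested.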

How the data were processed

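RNA-seq libraries of 8 heart ventricle samples were made from polyadenylated RNA with a directional kit and sequenced as single reads of 60 bases, per the labels. The authors deposited expected counts per Ensembl gene. The submitters' processing notes name cutadapt, RSEM 1.3.1 and GRCm38. The aligner and the strand setting are not given in the sources used here, and 18.1% of values were not whole, since RSEM divides ambiguous reads.

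Expected counts were rounded. Symbols, positions and exon lengths came from GENCODE M21 (53360 of 53465 identifiers matched). After filterByExpr by group (15388 genes) and TMM scaling, edgeR 4.0.16 in R 4.3.3 tested labelled-Flox against WT by quasi-likelihood (glmQLFTest, two-sided, group only). Adjusted p are Benjamini-Hochberg values over the 15388 genes. Standard errors (SE) and 95% intervals were derived from the F statistic. CPM are TMM-scaled. P-values set a group difference against the spread between these samples, with the dispersion moderated over genes. The make-up of the samples from embryos is not known here, and the depth of 16761763 to 24144272 counts limits precision for counting error only.

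The 44 genes, their role groups and the other lists were chosen with earlier results of these data known. Values in every library were given for genes past the FDR and, in each of 7 role groups, for the gene with the smallest p and that with the highest level per kilobase. Genes outside this rule (Espl1, Pttg1, Mki67, Top2a and Ccnb1 with values, and the promoter set) were chosen after their values were seen.

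Alternatives were no filter, a minimum of 1 CPM in 4 or more libraries, scaling by RLE, upper quartile or total count, DESeq2 1.42.0, limma 3.58.1 (voom), the replicate number as a block, a Y-linked covariate, a GC and length correction (lowess, span 0.3) and leaving out each library. The fits were tested on simulated data. Plots used matplotlib 3.10.9 (Python 3.11.15).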

Additional observations from a re-analysis of the deposited data

Results flagged for a closer look

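Of 92 groups of 4 values examined (the 44 genes, their summed level and Nrg1 in each group), 2 had 1 extreme value by Dixon's test at the 95% level, and about 4.6 would be met by chance. Both were in labelled-Flox library 3. Espl1 was at 61.4 CPM there, against 53.4 to 54.3 CPM in the other 3. Incenp, the scaffold of the chromosomal passenger complex, was at 82.9 CPM, against 73.0 to 73.6 CPM in the other 3.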

How the results depend on the processing

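The medians of single libraries had an SD of 0.046 within groups, which is not the error of a difference between groups. The median log2 fold change over the 44 genes was 0.042. It was above 0 in all 18 settings tried, from 0.020 with the Y-linked covariate, 0.025 without WT library 4 and 0.026 without labelled-Flox library 3 up to 0.067 without labelled-Flox library 2. Settings moved the number of the 44 past an FDR of 0.05 from 0 to 3 without a filter and with DESeq2 (Cdc20, Ube2c and Cenpa in both) and to 1 with the replicate number as a block (Cdc20, edgeR's adjusted p = 0.0346). Leaving out 1 library gave 0 to 1, the 1 being Cenpa without labelled-Flox library 2. For all tested genes, the count of 81 became 338 without a filter, 192 with DESeq2 and 16 with the Y-linked covariate, and 11 (without labelled-Flox library 3) to 142 (without labelled-Flox library 4) when a library was left out. The cause of these shifts was not tested. Of the genes named by rule, signs changed for Birc5, to 0.00093 with the GC and length correction and to between 0.0045 and 0.036 in 4 fits without 1 library (WT 1, WT 2, labelled-Flox 2 or labelled-Flox 4), and for Kif20a, to -0.018 without labelled-Flox library 3. Over all 8 such fits, Birc5 ranged from -0.042 to 0.036 and Kif20a from -0.018 to 0.035.

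Same-numbered libraries were compared by a correlation over genes after each group's mean was subtracted. It was 0.048 to 0.12 for the 4 same-numbered pairs and -0.093 to 0.023 for the 12 others. Every same-numbered pair was thus above every other pair. A shared litter or batch is not given in the sources used here, and whether same-numbered libraries share one was not tested. The main fit used the group only, with the replicate number as a block among the alternatives. The replicate block gave 93 calls over all genes and a median of 0.040 over the 44. With this spread between libraries, the interval reached above 0.1 on the log2 scale in 38 of the 44 genes and below -0.1 in 4.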
